A study of Mus musculus with 16 samples.

Results

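A set of 9 epithelial genes was followed through 16 RNA sequencing libraries of mouse pluripotent stem cells, chosen from the 34042 genes of the count table because they differed between 2 lines of formative stem cells. They are Cldn3, Cldn4, Cldn6, Cldn7, Rab25, Mal2, Krt18, Esrp1 and Sfn, and they were picked by name as epithelial genes with a higher level in line 5ar1 than in line 5ar3. All 9 members were found and all 9 passed the filter on low counts. Their difference between the lines is therefore given as a description with no test. The 16 libraries fell into 5 groups. Formative stem cells (FS) were in A3XR medium, with 5ar1 at passages 10, 12 and 14 and 5ar3 at passages 4, 5 and 12. Epiblast stem cells (EpiSCs) were line AFX6 in AFX medium at passages 5, 8 and 12 and line AF32 in AF medium at passages 13, 14 and 15. Naive embryonic stem (ES) cells were line E14IV-C in 2iL medium at passages 12, 13, 15 and 20. The labels name no strain, genotype or sex. Each EpiSC and ES group was 1 line in 1 medium, so line and medium cannot be told apart there, and the FS groups shared a medium. Libraries of a group were passages of 1 line, so every p-value measures the spread between passages.

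Claudins are the membrane proteins that form tight junction strands, and the set of claudins a cell makes determines what its junctions let through. Rab25, a small GTPase of recycling endosomes, and Mal2, a membrane protein of transcytosis, belong to the machinery that delivers cargo to the apical surface. Krt18 pairs with Krt8 in the keratin filaments of simple epithelia, Esrp1 is the RNA-binding protein that sets epithelial splice forms, and Sfn (14-3-3 sigma) is the 14-3-3 adaptor of epithelial cells. Pluripotent cells of the epiblast after implantation are themselves an epithelium. The transcription factor Grhl2 is known as an activator of many epithelial genes, while Zeb1 and Zeb2 are known as their repressors.

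Total counts were 22069338 to 33290250 per library. Values are CPM, counts scaled to a common library size after TMM normalisation, so counting error is small except for members below about 1 CPM. ES replicate 1, at passage 12, stood apart, with 38.1% of its counts on the mitochondrial rRNA gene mt-Rnr2 against 9.96% to 25.0% in the other 15 libraries. Summed levels of 6 pluripotency markers (Pou5f1, Sox2, Nanog, Sall4, Utf1 and L1td1) were 1359 to 2030 CPM in 5ar1, 934 to 1531 CPM in 5ar3, 1474 to 1665 CPM in EpiSC AFX, 1209 to 1307 CPM in EpiSC AF and 2116 to 2381 CPM in ES. A list of 6 naive markers summed to 2224 to 3471 CPM in ES and to at most 12.8 CPM in any other library, and Zfp42 had at most 3 counts in every library of 5ar1, 5ar3 and EpiSC AFX.

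The promoters of 4 members are printed first. Rab25, Sfn and Cldn4 had a large line difference, and Cldn3, the neighbour of Cldn4, had a small one. These 4 were picked and do not stand for all 9 members. The sequences are the bases upstream of the start in RefSeq on GRCm38.p6, 5′ to 3′, and 7 of the 9 members were matched there. Mal2 and Esrp1 were not matched. Capitals mark matches on either strand to AACNNGTT, a pattern of GRHL factors, and to the E-box of SNAI and ZEB factors, CACCTG. The windows lie at chr3:88548301-88548529 (minus strand), chr4:133602169-133602418 (minus strand), chr5:134946935-134947184 (minus strand) and chr5:134985964-134986213 (plus strand), and the Rab25 window stops 21 bases short of the RefSeq start, where the GENCODE gene begins.
Rab25: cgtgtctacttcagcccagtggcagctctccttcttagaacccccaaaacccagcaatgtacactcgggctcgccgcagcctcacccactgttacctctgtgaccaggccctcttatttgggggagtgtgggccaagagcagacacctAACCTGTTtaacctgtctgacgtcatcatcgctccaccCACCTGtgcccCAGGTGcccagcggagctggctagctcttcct
Sfn: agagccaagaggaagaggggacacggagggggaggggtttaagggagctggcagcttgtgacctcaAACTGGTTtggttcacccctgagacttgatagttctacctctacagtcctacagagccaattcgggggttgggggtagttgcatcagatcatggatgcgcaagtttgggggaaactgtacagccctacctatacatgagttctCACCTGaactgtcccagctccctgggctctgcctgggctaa
Cldn4: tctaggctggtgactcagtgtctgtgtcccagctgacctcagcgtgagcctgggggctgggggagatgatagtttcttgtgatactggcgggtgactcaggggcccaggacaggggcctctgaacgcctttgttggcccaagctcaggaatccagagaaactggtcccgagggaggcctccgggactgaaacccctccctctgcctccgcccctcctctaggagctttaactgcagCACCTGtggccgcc
Cldn3: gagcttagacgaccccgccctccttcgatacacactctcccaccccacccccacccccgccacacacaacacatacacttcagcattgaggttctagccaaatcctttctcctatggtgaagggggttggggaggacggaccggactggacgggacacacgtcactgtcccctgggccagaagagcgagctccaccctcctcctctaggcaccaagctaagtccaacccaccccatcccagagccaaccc

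Within the 250 bases before the start, 5 of the 7 matched members held CACCTG on either strand, against 17.1% of 27025 promoters of the same length. These were Rab25 with 2 matches, at 64 and 53 bases before the start, and Sfn, Cldn4, Cldn6 and Krt18 with 1 each. The Cldn6 match, 93 bases before the RefSeq start, lies inside the GENCODE gene, which begins 116 bases earlier than the RefSeq start. GC content was 51.2% to 62.0% in the 7 members, where the median over all promoters was 52.0%, and the shares were not matched for it. AACNNGTT was found in 2 of the 7, as AACCTGTT in Rab25 and AACTGGTT in Sfn, against 3.63% of all promoters. AACCGGTT, the strictest form and a special case of that pattern, was found in none of the 7 and in 0.122% of all promoters. The AP-2 pattern GCCNNNGGC was found in Krt18 alone, against 13.6% of promoters, and TATAAA in none of the 7, against 12.97%. Cldn3 and Cldn7 held no match to any of these. Krt18 held CACCTG with a log2 fold change between the FS lines of 1.08, and Cldn7 held none with 2.75. Whether matches go with the line difference was not tested. No binding was measured here, and a match is a description of the sequence only.

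In position the members were scattered over 6 chromosomes, with coordinates from GENCODE release 21 on GRCm38. Cldn4 (chromosome 5, 134945119 to 134946934, minus strand) and Cldn3 (134986214 to 134987472, plus strand) are neighbours that point away from each other, with 39279 bases and 0 coding genes between them. Cldn6 (chromosome 17, 23679249 to 23682446) lies next to Cldn9, and Krt18 (chromosome 15, 102028180 to 102032027) lies next to Krt8, its filament partner. Mal2 (54571192 to 54602847) is also on chromosome 15. Cldn7 is on chromosome 11 (69964779 to 69967885), Rab25 on chromosome 3 (88542029 to 88548300), and Esrp1 (11331933 to 11386783) and Sfn (133600556 to 133602168) on chromosome 4. Cldn3 and Esrp1 each overlap a noncoding gene on the other strand (Wbscr25 and Gm26663), and since the strand setting of the counting is not given, reads of these pairs may be mixed.

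The claudins were described first, and among them Cldn6 showed the FS line difference at the highest level. Cldn6 was at 172, 189 and 226 CPM in 5ar1 (passages 10, 12 and 14) and at 27.0, 13.9 and 20.7 CPM in 5ar3 (passages 4, 5 and 12). In order of passage, here and for the other members, it was at 119, 201 and 127 CPM in EpiSC AFX, at 117, 156 and 95.8 CPM in EpiSC AF, and at 10.99, 4.92, 5.51 and 5.83 CPM in ES. Line 5ar1 thus overlapped EpiSC AFX, EpiSC AFX overlapped EpiSC AF, and 5ar3 lay below all of these and above all 4 ES libraries. The ratio of means between the FS lines was 9.56, with a log2 fold change of 3.25.

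Cldn4, known as a receptor of a clostridial toxin together with Cldn3, had another order. It was at 4.63, 4.40 and 9.55 CPM in 5ar1 and at 0.442, 0.236 and 0.304 CPM in 5ar3, an 18.9-fold ratio of means (log2 fold change 4.198). These 5ar3 values rest on 12, 5 and 8 counts. Cldn4 was at 9.32, 16.7 and 7.79 CPM in EpiSC AFX, at 11.96, 5.69 and 7.997 CPM in EpiSC AF and at 119.8, 65.7, 75.4 and 81.3 CPM in ES. ES was the highest group without overlap, 5ar3 the lowest without overlap, and the other 3 groups overlapped.

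Cldn7, a claudin that also sits along the lateral membrane, was highest in EpiSC AFX. Its levels there were 47.6, 66.9 and 36.6 CPM, against 19.7, 12.2 and 19.5 CPM in 5ar1 and 11.4, 6.93 and 5.91 CPM in EpiSC AF. It was at 4.31, 1.84 and 1.45 CPM in 5ar3 and at 6.22, 2.75, 2.92 and 3.36 CPM in ES. The ES libraries overlapped both EpiSC AF and 5ar3, while 5ar1 lay between EpiSC AFX and EpiSC AF with no overlap. The FS lines differed by a log2 fold change of 2.75, or 3.39 without the passage 4 library (FS_5ar3 replicate 2). Cldn3 was the member with the smallest difference, at 25.3, 8.96 and 6.64 CPM in 5ar1 and 10.8, 4.33 and 5.37 CPM in 5ar3. Its log2 fold change was 0.99, or 0.17 without the passage 10 library (FS_5ar1 replicate 1), and the lines overlapped, so the label of a gene that differs between the lines was not borne out by separate libraries for Cldn3. It was at 4.28, 7.998 and 6.21 CPM in EpiSC AFX, 5.82, 2.06 and 4.25 CPM in EpiSC AF and 3.46, 3.66, 3.51 and 5.95 CPM in ES. Neighbouring groups overlapped for Cldn3 all along its order of means, from 5ar1 through 5ar3, EpiSC AFX and ES to EpiSC AF.

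Levels of different claudins were compared per kilobase of exon in GENCODE. Over the 26 claudin genes in the table, group means summed to 154 CPM per kilobase in 5ar1, 143 in EpiSC AFX, 107 in EpiSC AF, 67.5 in ES and 36.6 in 5ar3. Cldn6 made up 74.0% of this sum in 5ar1, 60.8% in EpiSC AFX and 67.0% in EpiSC AF, but 5.86% in ES, where Cldn4 made up 69.8%. In 5ar3 the leading claudin was Cldn12, a claudin outside the 9 members, with 40.1% of the sum, and Cldn6 followed with 32.6%. Cldn12 itself was at 14.7 CPM per kilobase in 5ar3 and 15.4 in 5ar1, and did not pass the test between the lines. These shares are ratios of group means with no test.

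**Figure D1:**
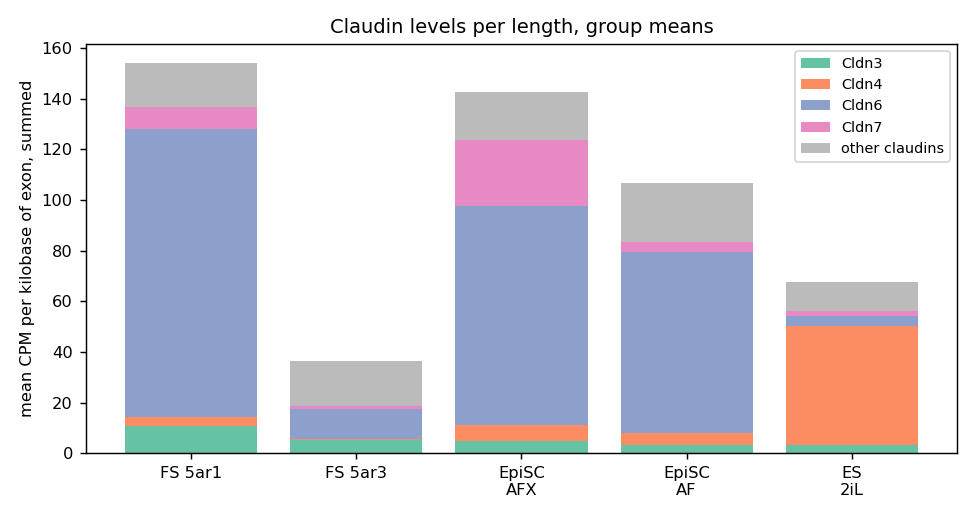
Mean CPM per kilobase of exon for Cldn3, Cldn4, Cldn6, Cldn7 and the sum of the other claudins (vertical axis, stacked bars from 0) in each of the 5 groups (horizontal axis). Cldn6 fills most of the bar in 5ar1 and both EpiSC groups, Cldn4 fills 69.8% of the ES bar, and the 5ar3 bar is the shortest at 36.6 CPM per kilobase.

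The trafficking genes had the widest separation of the FS lines. Rab25 was at 30.4, 22.7 and 29.3 CPM in 5ar1 and at 0.332, 0.141 and 0.228 CPM in 5ar3, where the libraries held 9, 3 and 6 counts. The ratio of means was 118, with a log2 fold change of 6.81. Rab25 was at 16.3, 28.3 and 14.1 CPM in EpiSC AFX, 13.2, 11.9 and 8.92 CPM in EpiSC AF and 7.19, 3.34, 4.65 and 3.40 CPM in ES. Every ES library was therefore above every 5ar3 library, and 5ar1 overlapped only EpiSC AFX.

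Mal2 was at 12.8, 9.12 and 9.14 CPM in 5ar1, where the ratio to 5ar3 was 27.5 (log2 fold change 4.77). In 5ar3 it was at 0.368, 0.377 and 0.381 CPM, from 10, 8 and 10 counts. Unlike Rab25, Mal2 was as low in ES, at 0.553, 0.0903, 0.182 and 0.255 CPM from 8, 2, 4 and 6 counts, so that 5ar3 and ES overlapped. The EpiSC AFX libraries were at 14.8, 17.1 and 7.62 CPM and the EpiSC AF libraries at 10.1, 5.59 and 9.09 CPM, and both overlapped 5ar1.

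Krt18 and Esrp1 differed between the FS lines in level but remained far from ES in both. Krt18 was at 179, 94.6 and 107 CPM in 5ar1 and at 82.2, 47.3 and 49.9 CPM in 5ar3, a ratio of means of 2.12 with no overlap. It was at 113, 185 and 195 CPM in EpiSC AFX, 259.8, 223 and 187 CPM in EpiSC AF, and 3.39, 2.21, 1.959 and 3.91 CPM in ES. The 5ar3 mean was 20.9 times the ES mean. Esrp1 was at 110.2, 75.1 and 69.7 CPM in 5ar1 and at 16.1, 10.6 and 11.9 CPM in 5ar3, a ratio of means of 6.60. It was at 78.1, 89.4 and 76.6 CPM in EpiSC AFX, 53.7, 61.3 and 54.9 CPM in EpiSC AF and 0.415, 0.406, 0.592 and 1.06 CPM in ES. The 5ar3 mean was 20.8 times the ES mean.

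Sfn had the largest ratio of highest to lowest library of the 9 members in 5ar3 and EpiSC AFX, but not in the other groups. In ES its ratio was 1.60, the lowest of the 9. Sfn was at 14.5, 10.3 and 31.6 CPM in 5ar1 and at 2.17, 0.330 and 0.152 CPM in 5ar3, where 59, 7 and 4 counts were found at passages 4, 5 and 12. The highest 5ar3 library was 14.3 times the lowest. The log2 fold change between the lines was 4.35, and it was 6.30 without the passage 4 library (FS_5ar3 replicate 2) and 3.75 without the passage 14 library (FS_5ar1 replicate 3). Sfn was at 60.1, 214 and 73.3 CPM in EpiSC AFX, 140.3, 53.0 and 83.2 CPM in EpiSC AF and 16.1, 12.5, 12.7 and 19.9 CPM in ES. Line 5ar1 overlapped ES and lay below both EpiSC groups, and 5ar3 lay below every other library.

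**Figure D2:**
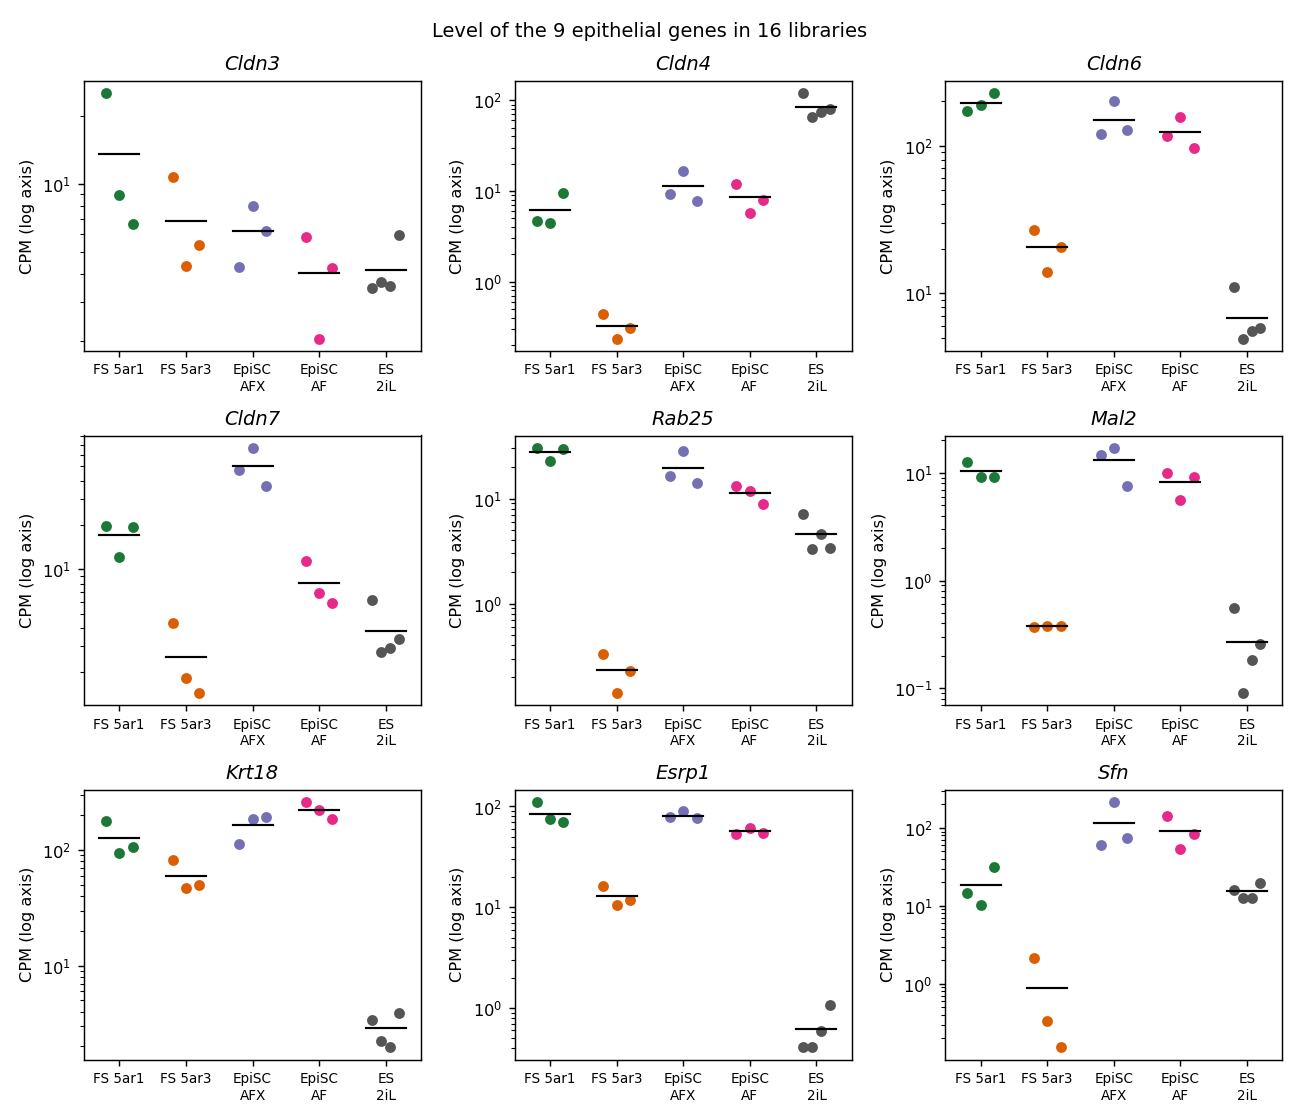
CPM of each of the 9 genes (vertical, log axes with a range of their own) in the 16 libraries, grouped along the horizontal axis, where points are libraries in order of passage and lines are group means. Line 5ar3 lies below 5ar1 without overlap for every gene except Cldn3, and it lies below all ES libraries for Cldn4, Rab25 and Sfn and above them for Cldn6, Krt18 and Esrp1.

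Side by side, all 9 members had a higher fitted level in 5ar1 than in 5ar3, with a median log2 fold change of 3.25 against -0.01 over the 18555 tested genes. The libraries of the lines did not overlap for 8 of the 9, where 8.35% of tested genes were higher and 10.4% lower in 5ar1 with no overlap, but the members were chosen on this contrast. Both lines had a library at passage 12. At that passage Rab25 was at 22.7 CPM in 5ar1 and 0.228 CPM in 5ar3, and Cldn6 was at 189 and 20.7 CPM. In 5ar3 the passage 4 library was the highest of the 3 for 8 of the 9 members, the exception being Mal2. The share of all tested genes with that order was not counted, so nothing about the members or about passage is read from it. Passage 12 was below passage 5 for Cldn7 and Sfn and above it for the other members.

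Each line was then set beside the other groups, also with no test, since these folds contain the values that chose the members. Against EpiSC AFX, 5ar1 had a median log2 fold change of -0.35 over the 9 members, and 2 of them (Cldn7 and Sfn) were lower and 0 higher with no overlap, where 10.6% and 12.1% of tested genes were. Against the same EpiSCs, 5ar3 had a median of -4.30, and 8 of 9 members were lower with no overlap, where 12.5% of tested genes were. Against EpiSC AF the medians were 0.59 for 5ar1 and -2.58 for 5ar3. Against ES, 5ar1 had a median of 2.58, with 7 members higher and Cldn4 lower with no overlap, where 28.6% and 25.7% of tested genes were. Line 5ar3 had a median of 0.58 against ES, and its members were divided. Krt18, Esrp1 and Cldn6 were higher with no overlap, with log2 fold changes of 4.39, 4.33 and 1.61. Cldn4, Rab25 and Sfn were lower with no overlap, at -7.98, -4.24 and -4.06, and Cldn3, Cldn7 and Mal2 overlapped. Of all tested genes, 30.8% were higher and 27.8% lower in 5ar3 than in ES with no overlap.

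The comparisons of EpiSCs with ES cells set no FS library against another group and were tested. The FS libraries still entered the low-count filter and the estimate of the spread, and the counts of called members in both comparisons were also 8 when the compared groups alone were fitted. Between EpiSC AF and ES, 8 of the 9 members were called by edgeR's quasi-likelihood test at an adjusted p under 0.05, with 7 higher and Cldn4 lower in EpiSC AF. The background was 58.6% of tested genes called, with 30.7% higher and 27.9% lower. Libraries did not overlap for 7 members, of which 6 were higher, where 62.3% of tested genes did not overlap (32.5% higher and 29.8% lower). Median log2 fold changes were 2.59 for the members and 0.01 for all tested genes. Esrp1 rose by 6.46 on the log2 scale (SE 0.28, edgeR adjusted p 1.32e-11), from 0.619 ± 0.308 CPM in ES (SD, n = 4) to 56.6 ± 4.09 CPM (SD, n = 3). Krt18 rose by 6.29 (SE 0.33), Mal2 by 5.02 (SE 0.41), Cldn6 by 4.19 (SE 0.30) and Sfn by 2.59 (SE 0.58). Cldn4 fell by 3.32 on the log2 scale (SE 0.36, edgeR adjusted p 6.10e-07), from 85.5 ± 23.7 CPM (SD, n = 4) to 8.55 ± 3.17 CPM (SD, n = 3).

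Smaller changes in the same comparison depended on the fit. Rab25 rose by 1.30 (SE 0.29, edgeR adjusted p 8.99e-04) and Cldn7 by 1.10 (SE 0.37, edgeR adjusted p 0.0162). Neither was called when both FS lines were given 1 mean, which puts their difference into the spread (edgeR adjusted p 0.367 for Rab25 and 0.202 for Cldn7). Cldn7 also lost its call when EpiSC_AF replicate 1 was left out (edgeR adjusted p 0.113) or when ES replicate 2 was (edgeR adjusted p 0.0506). Cldn3 did not pass the test (-0.04 as log2 fold change, SE 0.46, edgeR adjusted p 0.946), and its value was 0.18 when libraries were scaled by total counts alone. Without ES replicate 1, the library with the high mt-Rnr2 share, 8 members were called.

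Between EpiSC AFX and ES, 8 of the 9 members were again called, with 7 higher and Cldn4 lower, against 56.6% of tested genes called. Here 29.4% of tested genes were called higher and 27.2% lower, and the median log2 fold changes were 3.74 for the members and 0.01 for all. Libraries did not overlap for 7 members that were higher and for Cldn4, where 30.2% of tested genes were higher and 28.5% lower with no overlap. Esrp1 rose by 6.99 (SE 0.28), Krt18 by 5.84 (SE 0.32), Mal2 by 5.69 (SE 0.42) and Cldn6 by 4.47 (SE 0.30). Cldn7 rose by 3.74 (SE 0.38, edgeR adjusted p 2.87e-07), Sfn by 2.92 (SE 0.59, edgeR adjusted p 6.10e-04) and Rab25 by 2.09 (SE 0.29, edgeR adjusted p 9.83e-06). Cldn4 fell by 2.92 (SE 0.35, edgeR adjusted p 2.21e-06). Cldn3 was not called (log2 value 0.57, SE 0.45, edgeR adjusted p 0.301). With 1 mean for both FS lines Rab25 was not called (edgeR adjusted p 0.151), and without ES replicate 1 the count was again 8. The comparisons of EpiSC AF and EpiSC AFX share the ES libraries.

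Scaling by total counts alone shifted all genes. Of the genes then called between EpiSC AF and ES, 66.3% were higher in EpiSC AF, where TMM gave 52.5%, and over all tested genes the median change was 0.29 on the log2 scale. For EpiSC AFX these shares were 64.5% and 51.9%, with a median of 0.25. Both counts of 8 called members were the same under this scaling.

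Several lists of markers of other cell types also had calls in these comparisons. Over all tested genes, 30.7% were called higher than in ES in EpiSC AF and 29.4% in EpiSC AFX. All 7 tested genes of an 8-gene fibroblast list were called higher than in ES in both EpiSC groups, with summed levels of 33.4 to 80.2 CPM in EpiSC AF, 12.8 to 20.9 CPM in EpiSC AFX and 0.587 to 1.11 CPM in ES. Of 8 primitive endoderm markers 5 were tested, and 5 were called higher in EpiSC AF and 3 in EpiSC AFX, with sums of 46.7 to 126.0, 4.07 to 34.6 and 3.11 to 4.04 CPM in the same order. Summed levels of 8 trophoblast markers were highest in ES, at 81.5 to 99.0 CPM. Tfap2c, which is also on the regulator list, led there with a mean of 52.4 CPM, and Tead4 followed with 35.2 CPM. In ES, Cdx2 and Ascl2 had means of 0.649 and 0.596 CPM, and Elf5, Gata3 and Hand1 had at most 3 counts in every library. A list of 8 surface ectoderm markers summed to at most 4.97 CPM in any library, and Krt5 and Dlx5 had at most 3 counts in every library of all 5 groups. All 6 neuroectoderm markers were called higher in EpiSC AF, with sums of 4.88 to 15.04 CPM against 0.858 to 2.64 CPM in ES. In EpiSC AFX 1 of 6 was called higher, which is not above the share over all tested genes. The part of these markers in the members' values was not tested. In bulk RNA, fewer cells of a type and less RNA per cell cannot be told apart.

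Between the EpiSC groups, 1 of the 9 members was called, where 6.61% of tested genes were. Cldn7 was higher in EpiSC AFX by 2.64 on the log2 scale (SE 0.40, edgeR adjusted p 6.04e-04), at 50.4 ± 15.3 CPM against 8.07 ± 2.91 CPM in EpiSC AF (SD, n = 3 each), and the libraries did not overlap. With 1 mean for both FS lines its adjusted p was 0.0703 (edgeR), so the call was lost there. Rab25 (log2 fold change 0.79, SE 0.30, edgeR adjusted p 0.138) and Esrp1 (0.52, SE 0.22, edgeR adjusted p 0.195) also did not overlap between the groups, as 33.9% of tested genes did not, but were not called, and Esrp1 was called when these groups alone were fitted (edgeR adjusted p 0.0105). Krt18 had a log2 fold change of -0.44 (SE 0.29), and the remaining 5 members had values of 0.28 to 0.68. The misses do not show that the levels were alike.

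**Figure D3:**
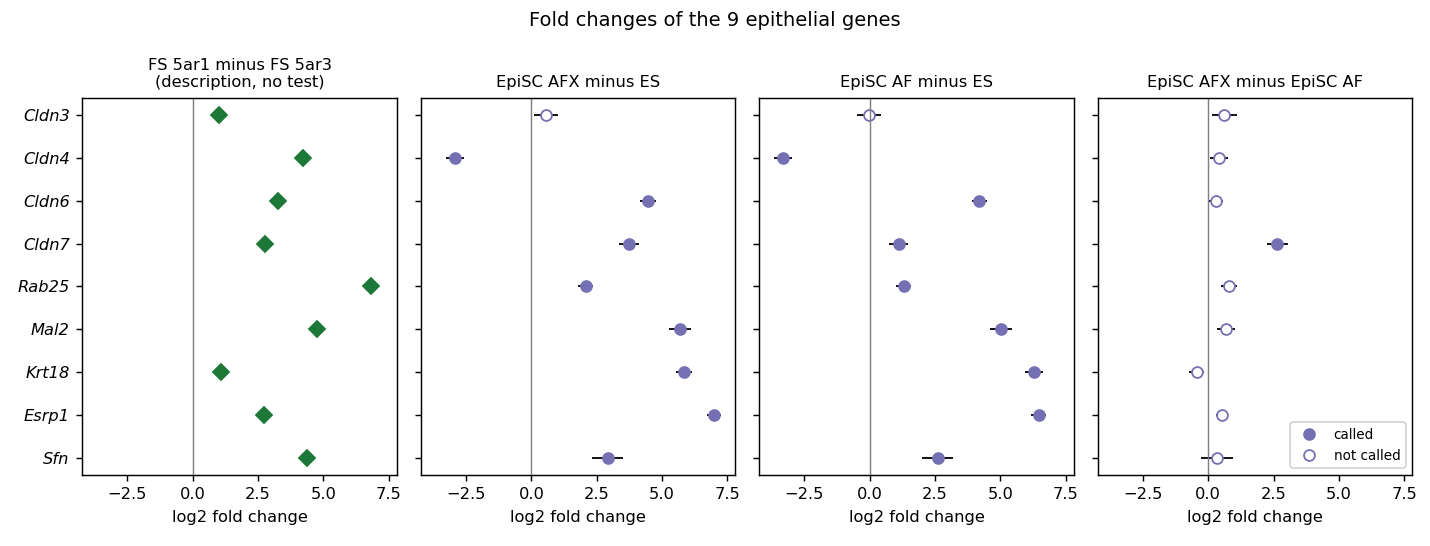
Log2 fold changes (horizontal axes, 1 scale) of the 9 genes (vertical) in 4 comparisons. Diamonds are the FS line difference without a test, circles are edgeR estimates with bars of 1 SE, and filled circles were called. Cldn4 is the gene left of 0 in both comparisons with ES, and Cldn7 is the filled point between the EpiSC groups.

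Other epithelial genes were counted from 6 lists that hold none of the 9 members, namely other claudins, tight junction and polarity genes, adherens junction and desmosome genes, keratins, apical traffic and membrane protease genes, and epithelial regulators. Of their 107 genes, 89 were tested. The lists used here and below, like the members, were chosen with earlier results of these data known. Their counts between the FS lines are therefore not independent support for the difference of the members. Between the FS lines, 27 of the 89 were called higher and 2 lower in 5ar1, and 60 were not called. Over all tested genes 1.86% were called higher and 2.02% lower, or 3.88% in all. The median log2 fold change was 0.50 for the lists and -0.01 for all tested genes. Without FS_5ar3 replicate 3 (passage 5) 18 were higher and 1 lower, and under the other alternatives between 19 and 27 were higher and 1 to 4 lower.

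Of 19 tested adherens junction and desmosome genes, 10 were called higher in 5ar1 and 0 lower (edgeR, with 12 at an unadjusted p under 0.05 and 10 called by DESeq2), and 9 were not called. Cdh1 (E-cadherin) was at 278 to 392 CPM in 5ar1 and 44.2 to 91.2 CPM in 5ar3, higher by 2.51 on the log2 scale (SE 0.28, edgeR adjusted p 8.27e-05). Epcam, an epithelial adhesion molecule, was higher by 1.44 (SE 0.20), the desmosomal cadherin Dsg2 by 1.56 (SE 0.23) and the cornified envelope protein Ppl by 2.54 (SE 0.37). Of 19 tested tight junction and polarity genes, 5 were higher and Jam2, named after its value was seen, was lower. Ocln (occludin) was higher by 2.77 (SE 0.30, edgeR adjusted p 4.90e-05), the polarity protein Crb3 by 2.05 (SE 0.44) and Marveld3 by 1.63 (SE 0.32). F11r and Marveld2, also named after their values were seen, were the other 2.

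Of 24 apical traffic and membrane protease genes, 7 were higher and 0 lower in 5ar1 (edgeR, with 10 at an unadjusted p under 0.05 and 7 called by DESeq2). The epithelial clathrin adaptor subunit Ap1m2 was at 7.16 ± 4.65 CPM in 5ar1 and 0.0962 ± 0.0834 CPM in 5ar3 (SD, n = 3 each), higher by 6.18 (SE 0.72, edgeR adjusted p 1.09e-04). The membrane protease genes St14 and Prss8 were higher by 2.42 (SE 0.26) and 1.64 (SE 0.38). Rab11a and Rab11b, close relatives of Rab25, were not called. Of 5 tested keratins Krt8 was called, higher by 1.65 (SE 0.32, edgeR adjusted p 0.00696).

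None of the 6 tested claudins outside the members was called between the FS lines by edgeR, with 1 at an unadjusted p under 0.05 and 0 called by DESeq2. Claudins that differed had already been taken as members. Of these 6, Cldn12 had means of 65.2 CPM in 5ar1 and 62.0 CPM in 5ar3. Cldn1 and Cldn11 had means of at most 2.48 CPM in either line, and Cldn5, Cldn9 and Cldn15 of at most 0.451 CPM. The missing calls therefore say little about other claudins. None of the 6 other 14-3-3 genes was called either, with 0 at an unadjusted p under 0.05 and 0 called by DESeq2. Their log2 fold changes had a median of -0.04, against 4.35 for Sfn.

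Of 16 epithelial regulators, 4 were called higher and Tfap2c, named after its value was seen, lower in 5ar1. Grhl2 was at 38.5 to 49.8 CPM in 5ar1 and 5.89 to 7.38 CPM in 5ar3, higher by 2.80 (SE 0.27, edgeR adjusted p 1.43e-05). Esrp2, the paralogue of Esrp1, was higher by 4.004 (SE 0.45, edgeR adjusted p 8.61e-05), at 8.22 ± 1.39 CPM against 0.506 ± 0.310 CPM (SD, n = 3 each). Ovol2, a repressor of mesenchymal genes, was higher by 3.39 (SE 0.58) at a low level, 1.97 ± 0.567 CPM in 5ar1 and 0.177 ± 0.169 CPM in 5ar3 (SD, n = 3 each). Rbm47, the other gene called higher, was named after its value was seen. In ES, Grhl2 was at 4.01 to 6.97 CPM, a range that overlaps 5ar3, and Esrp2 at 6.70 to 14.03 CPM, a range that overlaps 5ar1.

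Mesenchymal genes gave calls of the other sign. Of 12 tested, 0 were called higher and 4 lower in 5ar1 (edgeR, with 7 at an unadjusted p under 0.05 in either direction and 4 called by DESeq2), namely Cdh11, Zeb2, Zeb1 and Cdh2, the last named after its value was seen. Zeb2 was at 12.4 to 16.6 CPM in 5ar1 and 52.5 to 84.2 CPM in 5ar3, and fell by 2.40 on the log2 scale (SE 0.35, edgeR adjusted p 8.85e-04). Zeb1 was at 10.9 to 13.6 CPM in 5ar1 and 44.8 to 60.2 CPM in 5ar3, and fell by 2.15 (SE 0.37, edgeR adjusted p 0.00316). The adhesion molecule Cdh11 fell by 3.41 (SE 0.52). ES cells had 17.4 to 27.1 CPM of Zeb1 but 0.136 to 0.255 CPM of Zeb2.

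Markers of other cell types differed between the lines as well, where 1.86% of tested genes were called higher and 2.02% lower in 5ar1. The 6 neuroectoderm markers (Sox1, Pax6, Six3, Neurog2, Pax3 and Hes5) summed to 2.996 to 3.49 CPM in 5ar1 and 31.4 to 44.9 CPM in 5ar3, and 3 of the 6 were called lower in 5ar1. Sox1 led in 5ar3 with a mean of 22.9 CPM, and Pax3 had at most 3 counts in every library of both lines. Primitive endoderm markers summed to 3.22 to 6.75 CPM in 5ar1 and 10.8 to 17.6 CPM in 5ar3, with 1 of 5 tested genes called lower and Afp and Ttr at most 3 counts in each library. Fibroblast markers summed to 17.4 to 22.9 CPM and 27.0 to 34.7 CPM, with 1 of 7 called higher in 5ar1 and Lum at most 3 counts. Surface ectoderm markers summed to 0.861 to 1.52 CPM and 1.07 to 1.29 CPM with Krt5, Krt14 and Dlx5 at most 3 counts in every library of both lines. Of 4 tested, 0 were called by edgeR (0 at an unadjusted p under 0.05 and 0 by DESeq2). Trophoblast markers, with 1 of 7 called lower, summed to 7.11 to 11.1 CPM and 7.49 to 9.33 CPM, with Elf5 and Hand1 at most 3 counts in every library of both lines. The part of these markers in the line difference was not tested.

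**Figure D4:**
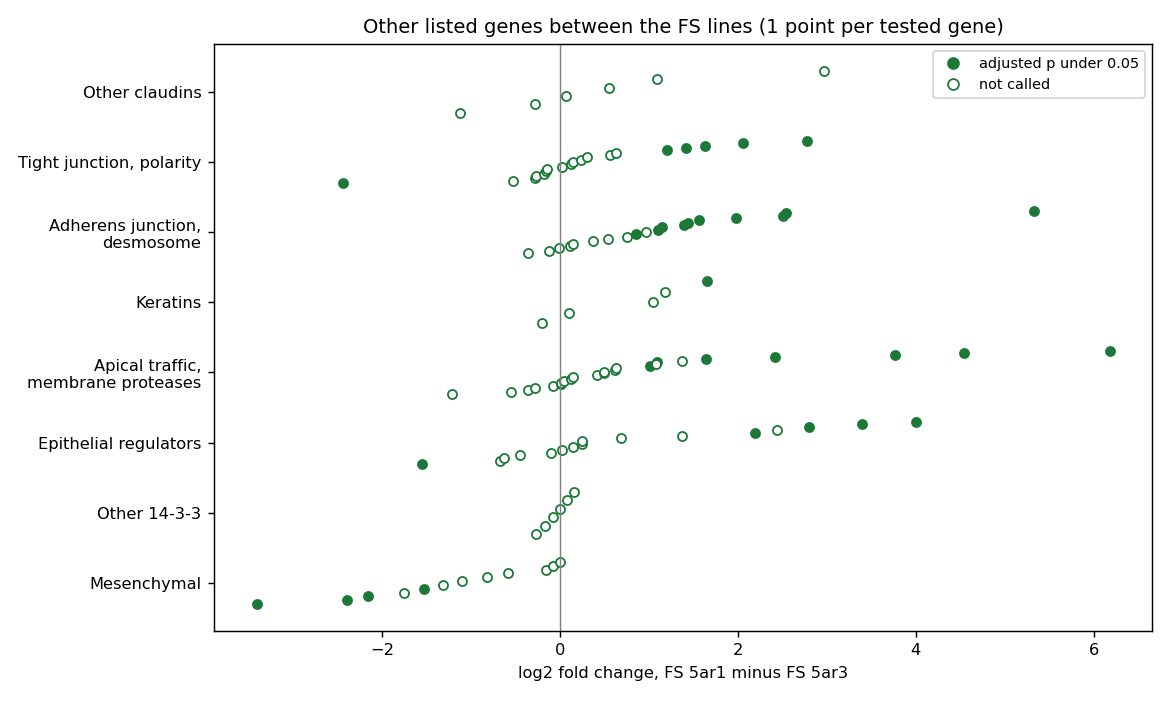
Log2 fold change between the FS lines (horizontal axis, 5ar1 minus 5ar3) for the tested genes of 8 lists that hold no member (vertical axis, 1 point per gene, filled where the edgeR adjusted p was under 0.05). Filled points of the adhesion, junction, traffic and keratin lists lie right of 0 except Jam2, and the 4 filled mesenchymal points lie left of 0.

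In the EpiSC groups the same lists had calls in both directions. Of the 89 epithelial genes, 39 were called higher and 27 lower in EpiSC AF than in ES, against 30.7% and 27.9% of tested genes, and 38 and 25 in EpiSC AFX, against 29.4% and 27.2%. Both counts of lower genes lie near the shares over all tested genes. Genes that rose in EpiSC AFX include Krt19 by 5.97 (SE 0.89), Krt8 by 3.46 (SE 0.31), Epcam by 3.57 (SE 0.20), the tight junction genes Cgn by 4.15 (SE 0.26), Marveld2 by 3.80 (SE 0.19) and Ocln by 2.36 (SE 0.27), and Grhl2 by 2.13 (SE 0.24). Genes that fell there include, with their log2 fold changes, the junctional adhesion molecule Jam2 (-8.75, SE 0.44), the Mal2 relative Mal (-6.23, SE 0.61), Cobl (-4.67, SE 0.30), Tfap2c (-4.95, SE 0.33), Elf3 (-3.76, SE 0.30) and Grhl3 (-3.41, SE 0.37). In EpiSC AF, the desmosomal gene Perp rose by 3.47 (SE 0.27), Epcam by 3.20 (SE 0.20) and Grhl2 by 1.45 (SE 0.24), while Cdh1 fell by 0.96 (SE 0.25, edgeR adjusted p 0.00393). Grhl2 and Cdh1 were not called there with 1 mean for both FS lines (edgeR adjusted p 0.0733 and 0.205).

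Between EpiSC AFX and EpiSC AF, 4 of the 89 were higher and 4 lower, where 2.24% and 4.38% of tested genes were. Ap1m2 was higher by 2.12 (SE 0.48, edgeR adjusted p 0.0114) and Spint2, a membrane protease inhibitor, by 0.79 (SE 0.16), while Cd24a had a log2 fold change of -1.66 (SE 0.35). The others were Trp53 and Grhl1, higher, and Jam2, Evpl and Trps1, lower, of which Grhl1, Jam2 and Evpl were named after their values were seen. Trp53 is on the regulator list but is not particular to epithelia. The count of 8 called genes was 5 with total counts only, 13 with DESeq2, 3 with 1 mean for both FS lines and 17 with these groups alone. It was 4 without EpiSC_AF replicate 3, 15 without EpiSC_AFX replicate 1, and 3 without EpiSC_AFX replicate 2 or 3.

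Across the 16 libraries the members differed in how closely they followed each other. Correlations of log2 CPM, given as a description over libraries that share lines, were highest for Krt18 with Esrp1 (Pearson 0.97) and for Cldn6 with Mal2 (0.96), and lowest for Cldn4 with Krt18 (-0.56). Among 12556 other genes, the 10 most like the mean pattern of the 9 members were Ocln (0.97), Hpn (0.97), Tmem125 (0.96), Ptpn3 (0.94), Tes (0.93), Casc4 (0.93), Ppl (0.93), Arhgef5 (0.92), Capg (0.91) and Tnfrsf12a (0.89). Ocln was at 26.6 CPM in 5ar1, 3.88 in 5ar3, 19.7 in EpiSC AFX, 12.9 in EpiSC AF and 3.85 in ES. Tnfrsf12a is the coding gene before Cldn6 on chromosome 17. With Spearman correlations 4 of these 10 stayed among the leading 10, and without the FS libraries 2 did. For single members the most similar genes included Epcam for Esrp1 (0.99), Zdhhc2 for Krt18 (0.99), Dsg2 for Cldn4 (0.98), Hpn for Mal2 (0.98), Kcnk1 for Cldn6 (0.97), Bspry for Rab25 (0.96), Vsig10 for Cldn3 (0.92), Junb for Sfn (0.92) and Ptpn3 for Cldn7 (0.92).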

How the data were processed

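Gene counts per library were the deposited values. They are raw counts per gene from the authors, and the submitters' processing notes name Trim Galore, TopHat2 2.1.0, featureCounts 1.5.0 and the build mm10. The annotation and the strand setting are not given in the sources used here. The table had 34042 rows, and 6 columns that matched no sample in the labels were not used. Of the identifiers, 33860 were found in GENCODE mouse release 21 on GRCm38, which gave positions and exon lengths, and promoter sequences came from RefSeq on GRCm38.p6.

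Groups were the lines named in the labels. Replicates are passages numbered in accession order, and numbers pair nothing. No library pair agreed within sampling noise (lowest chi-square per degree of freedom 9.13). Total counts ranged from 22069338 to 33290250. The model was edgeR 4.0.16 (R 4.3.3) with filterByExpr, which left 18555 genes, TMM scaling and robust quasi-likelihood fits. All 16 libraries entered, each of the 5 groups with its own mean. A call is an adjusted p (Benjamini-Hochberg, across all tested genes) under 0.05. The SE is the size of the log2 fold change divided by the square root of the quasi-likelihood F. Patterns were compared by Pearson correlation of log2 CPM (prior count 2) among genes with at least 5 CPM in their highest group.

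The members and lists were chosen with earlier results of these data known. All 9 members are described. Of the lists, up to 3 called genes in each direction with at least 5 CPM, and a fixed set of regulators and junction genes, could be named. Alternatives were DESeq2 size factors, total counts only, other low-count filters, the DESeq2 1.42.0 Wald test, 1 mean for both FS lines, a fit of the compared groups alone, a passage term, no mitochondrial genes, and leaving out each library. The procedure was also run on simulated counts with changes put into EpiSC AFX alone, and the outcome is not given here. That run checks the code and does not measure the spread between passages of these lines.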

Additional observations from a re-analysis of the deposited data

Results flagged for a closer look

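Levels of the 9 members were checked for single libraries far from the others in ES, where 4 libraries allow it, and 2 of 9 checks stood out. A rate of about 1 in 20 by chance would hold for independent checks. These 9 checks share the same 4 libraries, so their count cannot be set against that rate. Cldn3 in ES was highest at passage 20, with 5.95 CPM, against 3.46 to 3.66 CPM in the other 3 libraries. Cldn6 in ES was highest at passage 12, with 10.99 CPM, against 4.92 to 5.83 CPM in the other 3. The latter is ES replicate 1, in which mt-Rnr2 took 38.1% of the counts. That library was also the highest in ES for Cldn4 (119.8 CPM), Cldn7 (6.22 CPM), Rab25 (7.19 CPM) and Mal2 (0.553 CPM). It was not the highest for Cldn3, Krt18, Esrp1 and Sfn.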

How the results depend on the processing

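No paired analysis was possible because the labels give passages and not shared replicate numbers. Of the tested members, calls changed only as given in the report, and none of the called genes among the members and the 11 regulators and junction genes followed changed direction under the alternatives run. The number of genes called between EpiSC AFX and EpiSC AF was 1227, and it was 1918 with the DESeq2 Wald test, 791 with 1 mean for both FS lines, 2276 with only these groups, and 580 to 1489 when a library was left out. It fell below the main count by over 1.5 times without EpiSC_AF replicate 1 (764) or 2 (648) and without EpiSC_AFX replicate 2 (580) or 3 (595). The number of members called there was 1, and it was 0 with 1 mean for both FS lines and 2 with only these groups. Between the FS lines 720 genes were called, 1292 with the DESeq2 Wald test, 375 with only these lines and 286 to 1549 when a library was left out. The count was 1549 without FS_5ar1 replicate 1, 362 and 286 without its replicates 2 and 3, and 395 and 377 without FS_5ar3 replicates 2 and 3. The cause was not tested.

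Values near 0 that were not called changed sign. For Cldn3 between EpiSC AF and ES the log2 fold change was 0.18 with total counts only and -0.40 to 0.28 when a library was left out. For Zeb1 there it was 0.23 with total counts only, 0.028 with no low-count filter, 0.0035 with a mean of at least 1 CPM, 0.024 with only these groups, and -0.12 to 0.063 when a library was left out. For Cldn9 between EpiSC AFX and ES it was -0.70 to 1.04 when a library was left out. Between EpiSC AFX and EpiSC AF, Esrp2 was at -0.032 with total counts only. There, leaving out a library gave -0.40 to 0.32 for Esrp2, -0.00022 to 0.72 for Cldn4 and -0.47 to 0.77 for Sfn, the lowest each time without EpiSC_AFX replicate 3. Levels under about 1 CPM, such as Rab25 in 5ar3, rest on a few counts.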

Other observations

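Mesenchymal genes were also expressed in the EpiSC groups, where most of the 9 epithelial genes were high. Of 12 tested, 6 were called higher and 3 lower in EpiSC AF than in ES, where 30.7% and 27.9% of tested genes were. In EpiSC AFX 5 were higher and 4 lower, where 29.4% and 27.2% were. The counts of lower genes are near those shares. Cdh2 (N-cadherin) rose by 5.77 on the log2 scale in EpiSC AF (SE 0.34, edgeR adjusted p 3.65e-10) and by 4.03 in EpiSC AFX (SE 0.32, edgeR adjusted p 1.61e-08). Zeb2 rose by 7.66 (SE 0.47) and 6.08 (SE 0.47), while Fn1 (fibronectin) fell by 2.77 (SE 0.32) and 3.13 (SE 0.32). Between the EpiSC groups Cdh2 was lower in EpiSC AFX, at 26.5 ± 12.2 CPM against 88.7 ± 16.03 CPM (SD, n = 3 each, edgeR adjusted p 0.0021).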
